A study of Mus musculus with 10 samples.

Results

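Granulocytes are white blood cells that carry ready-made proteins in cytoplasmic granules. The 9 genes below, all typical of these cells, were followed in the aortic arch of atherosclerosis-prone mice, namely the eosinophil-associated ribonucleases Ear1, Ear2 and Ear3 and the neutrophil genes S100a8, S100a9, Ngp, Camp, Mpo and Elane. They were chosen by gene symbol in the array annotation, after their ratios between the genotypes in these same arrays were known, so those ratios are given as a description and support nothing. Of the 9 genes, 7 had a probe under their name, with 8 probes among 13872 on the array, and Ear1 and Ear2 had none. Camp and 1 of the 2 Mpo probes were blank on all 10 arrays, which left 6 probes with a value.

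Double-null mice, ApoE-/- and MyD88-/-, were set against apoE-null mice, ApoE-/- with MyD88 intact as far as the labels say, so both genotypes lacked apolipoprotein E, the ligand by which lipoproteins are cleared from blood. MyD88 is the adaptor through which most Toll-like receptors and the interleukin-1 receptor family signal, and the title of the series concerns atherosclerosis in its absence. Each of 10 two-colour arrays compared 1 double-null mouse with 1 apoE-null mouse, and every one of 5 mouse pairs was measured on 2 arrays with the dyes exchanged, so that n = 5 pairs at most. Both mice were female in pair 1 and male in pairs 2, 3 and 4, whereas pair 5 was a male double-null mouse over a female apoE-null mouse. In pair 1 the labels give the 2 mouse numbers to opposite genotypes on the 2 arrays, and its values follow the genotype labels, so the labels leave unsettled whether its 2 arrays hold the same extracts. A high fat diet of 8 weeks is stated for 8 arrays, and the other arrays held mice that also appear on arrays with that statement; the labels state neither age nor strain background. All values are log2 ratios of double-null over apoE-null, so a negative value means a lower level in double-null arch.

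Neutrophils and eosinophils mature in bone marrow, and most of their granule proteins are transcribed there rather than in tissue. Eosinophil-associated ribonucleases are secreted members of the ribonuclease A family that multiplied in rodents into a cluster of closely similar genes. S100a8 and S100a9 form calprotectin, a calcium- and zinc-binding heterodimer that is abundant in the neutrophil cytosol and is also made by monocytes. Ngp and Camp encode cathelin-related proteins of the secondary granules, the second being the precursor of an antimicrobial peptide, whereas Mpo (myeloperoxidase) and Elane (neutrophil elastase) belong to the primary granules formed first. In whole arch tissue, fewer cells of a type and less RNA per cell cannot be told apart.

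Regulatory sequence is shown for the genes whose relation to each other matters below: the neighbours S100a8 and S100a9, the granule gene Ngp, and the close paralogs Ear1 and Ear2. Each line holds the 250 bases before the annotated start in RefSeq, build GRCm38.p6, read 5′ to 3′ on the strand of the gene. Capitals mark matches to TTNNGNAA, a simplified C/EBP motif, and to a TATA box with the letters TATAAA, both searched on both strands; no 2 matches overlapped. The positions are chr3:90668821-90669070 on the plus strand for S100a8, chr3:90695722-90695971 on the minus strand for S100a9, chr9:110419558-110419807 on the plus strand for Ngp, chr14:43819640-43819889 on the minus strand for Ear1 and chr14:44102404-44102653 on the plus strand for Ear2.
S100a8: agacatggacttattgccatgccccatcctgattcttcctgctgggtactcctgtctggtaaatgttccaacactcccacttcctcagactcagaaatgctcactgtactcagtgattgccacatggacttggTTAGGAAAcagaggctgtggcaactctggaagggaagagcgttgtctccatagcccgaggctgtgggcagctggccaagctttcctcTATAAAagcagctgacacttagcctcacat
S100a9: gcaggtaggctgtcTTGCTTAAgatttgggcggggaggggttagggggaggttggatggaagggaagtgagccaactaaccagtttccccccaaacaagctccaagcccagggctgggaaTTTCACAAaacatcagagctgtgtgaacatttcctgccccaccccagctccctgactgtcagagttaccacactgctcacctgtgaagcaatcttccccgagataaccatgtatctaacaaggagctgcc
Ngp: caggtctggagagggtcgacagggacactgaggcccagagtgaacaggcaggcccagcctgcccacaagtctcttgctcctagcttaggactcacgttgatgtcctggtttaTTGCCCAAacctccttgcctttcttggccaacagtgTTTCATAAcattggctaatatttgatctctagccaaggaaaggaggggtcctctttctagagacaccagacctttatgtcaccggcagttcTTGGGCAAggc
Ear1: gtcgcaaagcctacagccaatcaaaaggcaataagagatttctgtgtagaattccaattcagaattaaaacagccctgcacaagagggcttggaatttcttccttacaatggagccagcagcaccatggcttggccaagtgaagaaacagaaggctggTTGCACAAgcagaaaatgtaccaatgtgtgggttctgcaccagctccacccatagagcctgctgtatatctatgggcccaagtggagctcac
Ear2: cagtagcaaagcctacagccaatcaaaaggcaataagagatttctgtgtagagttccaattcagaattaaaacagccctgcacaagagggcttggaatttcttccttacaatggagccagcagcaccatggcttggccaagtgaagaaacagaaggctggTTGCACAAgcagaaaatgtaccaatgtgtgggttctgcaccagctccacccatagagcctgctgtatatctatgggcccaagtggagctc

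The Ngp window held 3 matches to the C/EBP motif, 138, 102 and 11 bases before the start. The S100a9 window held 2, at 236 and 130 bases, and the S100a8 window held 1, at 117 bases, with a TATA box 30 bases before the start. Ear1 and Ear2 held 1 each, at 92 and 90 bases, and the windows of Camp, Mpo and Elane held none. Of 32851 windows of this length in the same table, 36.8% held the C/EBP motif and 12.4% the TATA box, so a match is common and describes the letters only. S100a8 and S100a9 lie next to each other on chromosome 3, yet their windows were only 44.7% identical over an alignment of 282 columns.

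The windows of Ear1 and Ear2 were 97.6% identical over 252 aligned columns, and that of Ear10, which lies between them in the gene order of chromosome 14, was 91.7% identical to that of Ear1. Ear6 and Rnase2b, the current name of Ear5, were less alike, at 78.2% and 75.4%. Ear3 has a probe but no entry in the RefSeq table, so no sequence is printed for it. These windows lie outside the transcripts and say nothing of hybridisation, and which Ear transcripts the Ear3 probe detects was not tested, so its values are those of the probe annotated as Ear3.

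As the check of the genotypes, Myd88 was at -0.90 ± 0.22 (SD, n = 5 pairs) and negative on 10 of 10 arrays. An array held values for 4581 to 7057 of the 13872 probes. Probes entered the tests with at least 3 complete pairs, as 4866 did; 5815 probes were blank on every array, and 1783 had values only where channel 1 held the double-null RNA, against 209 only in the other orientation. Without pair 1 the mean was -1.20 for Ear3, 0.15 for S100a8 and 0.18 for Mpo, whereas S100a9 and Ngp then had under 3 complete pairs. Smooth muscle, the main cell of the labelled tissue, was represented by 9 tested probes of 11, with Des blank throughout.

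Of the 5 tested granulocyte probes, that of Ear3 had the lowest mean. The Ear3 probe had values of -0.64, -0.82, -0.62, -0.91 and -0.25 in pairs 1 to 5 where channel 1 held double-null RNA. With double-null RNA in channel 2 it had -1.44, -1.28, -1.64 and -1.91 in pairs 1 to 4, and pair 5 was blank. All 9 values were negative, and the value closest to 0 was that of pair 5, the pair of mixed sex. The 4 complete pairs were at -1.04, -1.05, -1.13 and -1.41, a mean of -1.16 ± 0.17 (SD, n = 4 pairs), which is a level 2.23-fold lower in double-null arch. Its SD, which leaves out pair 5, was below the median SD of 0.30 over the tested probes. Its mean ranked 9th from the lowest of 4866. Ear3 was chosen with these ratios known, so nothing is read from its SD or rank. With single arrays admitted, which adds pair 5, its mean was -0.98. Of the 5 tested granulocyte probes 1, that of Ear3, was past an adjusted p of 0.05 for the genotype difference, which 38 of 4866 probes (0.781%) passed, 29 higher (0.596%) and 9 lower (0.185%); since this difference chose the genes, nothing is read from that count. Over all probes between 0 and 25 passed with 1 pair left out, with 0 without pair 4.

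The size of the Ear3 ratio differed with the dye orientation, although its sign did not. Over the 4 complete pairs the mean was -1.57 with double-null RNA in channel 2 and -0.75 with it in channel 1, and channel 2 gave the lower value in 4 of 4 pairs. The difference between orientations divided by 2 was -0.41 ± 0.13 (SD, n = 4 pairs), a difference already known when the genes were chosen and therefore given as a description. Such a dye effect was called for 231 of 4866 probes (4.75%), with 140 higher (2.88%) and 91 lower (1.87%) when channel 2 held the double-null RNA, and for 1 of the 5 granulocyte probes, from which nothing is read. The same quantity was -0.03 ± 0.14 for S100a8 and -0.12 ± 0.08 for Mpo (SD, n = 5 pairs), and -0.10 ± 0.36 for S100a9 and -0.13 ± 0.16 for Ngp (SD, n = 3 pairs). Ear3 was at -1.04 in the female pair and averaged -1.20 in the male pairs.

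**Figure D1:**
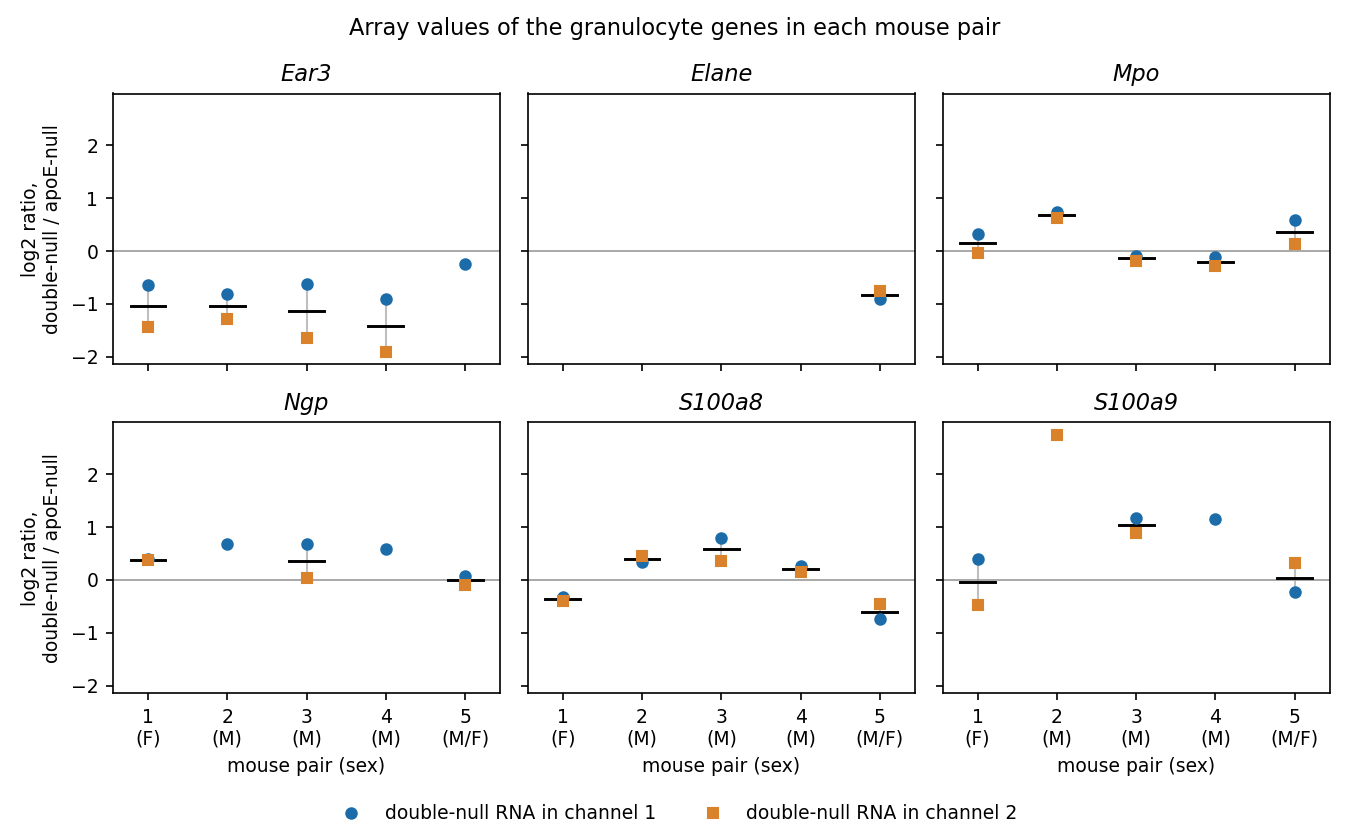
Log2 ratios of double-null over apoE-null (vertical axis) for the 6 granulocyte probes with values, by mouse pair (horizontal axis, with F for female, M for male and M/F for a male double-null over a female apoE-null mouse). Circles mark double-null RNA in channel 1, squares in channel 2, and a black bar is the mean of a complete pair. Ear3 is below 0 on all 9 arrays and lower on the squares, S100a8 is above 0 in pairs 2 to 4 and below 0 in pairs 1 and 5, and Elane has values in pair 5 only.

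The tested ribonucleases outside the Ear genes lay near 0. Ang, an angiogenic ribonuclease, averaged 0.05 ± 0.30 (SD, n = 5 pairs, adjusted p = 0.910), and Rnase4, whose annotated start shares its upstream window with Ang, averaged 0.00 ± 0.20 (SD, n = 5 pairs, adjusted p = 0.990). Those 2 were the tested probes among 8 for the family, and 0 passed the threshold in either direction. Ang2 had values on 7 arrays and Rnase1, the pancreatic-type ribonuclease, on 4 arrays of 1 orientation, all negative, between -1.13 and -0.30. Rnase2b, itself an Ear gene by its older name, was blank on every array, as were Rnase6 and Rnase10.

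Of 23 eosinophil probes 11 (47.8%) were blank on all 10 arrays, against 41.9% of all probes, and 5 had values on every array, against 26.0% of all probes. Among the blank ones were Prg2 and Prg3, the major basic proteins of the granule, Ccr3, the eotaxin receptor, Il5ra, the interleukin-5 receptor chain, and Il5 itself. The others were Alox15, Ccl11, Csf2, Il3, Il33 and Ptgdr2. The blank share was near that of all probes, so nothing is read from which genes were blank. Those with values on every array were Csf2ra, Csf2rb2, Ccl5, Adgre1 and Il13, genes that other cells use as well. Epx, eosinophil peroxidase, had 3 values, all with double-null RNA in channel 1, at -0.05, -0.02 and 1.00 in pairs 1, 4 and 5. In the same pairs and orientation Ear3 was at -0.64, -0.91 and -0.25. Of the array values of all 1783 probes measured only in that orientation, 62.6% were positive. For the Epx values a genotype difference and a dye effect cannot be told apart, so nothing is read from the comparison with Ear3. Of the 10 eosinophil probes tested, 1 rose, 0 fell and 9 did not pass, beside 0.596% higher and 0.185% lower over all probes. Their median was -0.16 against -0.04 over all tested probes, and 0.04 without pair 1.

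The eosinophil probe that passed was Il13, a type 2 cytokine, and its direction rested on the orientation. Il13 had -2.25, -0.82, -1.63, -1.45 and -1.24 in pairs 1 to 5 with double-null RNA in channel 1. In the other orientation it had 3.65, 3.55, 2.69, 3.58 and 2.51. The 2 sets of arrays do not overlap and have opposite signs, so the mean of 0.86 ± 0.35 (SD, n = 5 pairs, adjusted p = 0.0483) comes from values of both signs. Its adjusted p was between 0.0622 and 0.207 with any 1 pair left out, and 0.713 in a fit to single arrays with the pair as a block. Csf2ra, a receptor chain for the growth factor GM-CSF, was at -0.32 ± 0.27 (n = 5 pairs, adjusted p = 0.471), Adgre1, which marks eosinophils and macrophages, at -0.42 ± 0.45 (n = 5 pairs, adjusted p = 0.471), and Ccl24, an eotaxin, at 0.61 ± 0.78 (n = 4 pairs, adjusted p = 0.511).

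**Figure D2:**
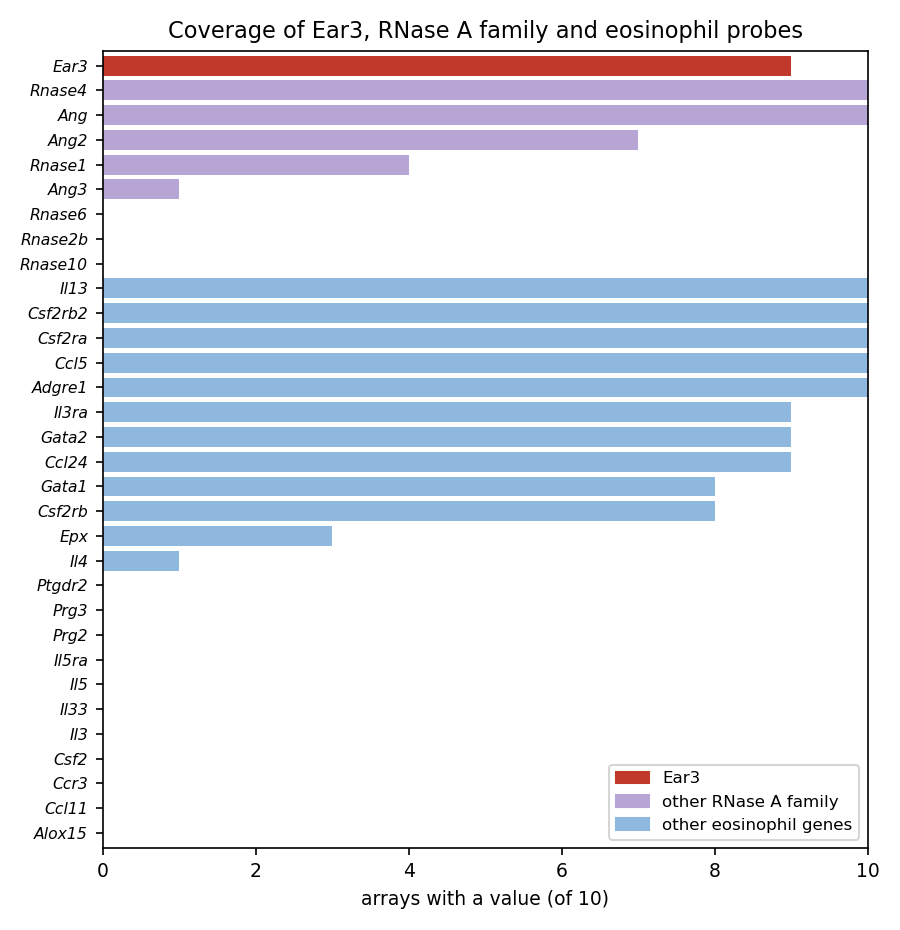
Number of arrays with a value (horizontal axis, of 10) for the Ear3 probe, for probes of the ribonuclease A family and for probes of eosinophil genes (vertical axis; genes, grouped by colour). Ear3 has values on 9 arrays; Rnase4, Ang, Csf2ra, Csf2rb2, Ccl5, Adgre1 and Il13 have them on 10, Epx on 3, and Prg2, Prg3, Ccr3, Il5ra and Rnase2b on none.

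S100a8 and S100a9, the calprotectin subunits, moved apart from Ear3, and S100a8 followed the mouse pair. S100a8 had -0.31, 0.34, 0.80, 0.27 and -0.74 in pairs 1 to 5 with double-null RNA in channel 1, and -0.40, 0.45, 0.35, 0.15 and -0.46 with it in channel 2. The 2 orientations gave the same sign in 5 of 5 pairs. The male pairs 2 to 4 were positive on 6 of 6 arrays, between 0.15 and 0.80, and pairs 1 and 5 were negative on 4 of 4, between -0.74 and -0.31, so the mean of 0.05 ± 0.50 (SD, n = 5 pairs) averages values of both signs, and it was -0.04 without pair 2 and -0.09 without pair 3. The female pair was at -0.36 and the male pairs averaged 0.40, a difference of -0.75. With 1 female pair this is a description; over all probes, on the assumption that a lone female pair varies as the male pairs do, the contrast called 10 of 3775 (0.265%), 1 higher (0.0265%) and 9 lower (0.238%) in the female pair, with 0 of the 3 granulocyte probes in it.

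S100a9 had 0.39, 1.18, 1.16 and -0.24 in pairs 1, 3, 4 and 5 with double-null RNA in channel 1. With it in channel 2 it had -0.48, 2.75, 0.89 and 0.31 in pairs 1, 2, 3 and 5. The male pairs were again the high ones, positive on 4 of 4 arrays and between 0.89 and 2.75. Pairs 1 and 5 lay between -0.48 and 0.39 with 2 values on each side of 0, and in each of them the sign changed with the orientation. This split of the pairs was taken from the S100a8 values. The share of all probes that part in the same way was not counted, so nothing is read from it. Pairs 2 and 4 each lacked an array, so the mean of 0.34 ± 0.60 (SD, n = 3 pairs) leaves out 2 of the 3 male pairs, and with single arrays admitted it was 0.99. S100a9 had no value in every one of pairs 1 to 4, so it was not part of the contrast between female and male pairs.

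Across the 8 arrays with both probes, Pearson's r of S100a8 with S100a9 was 0.76, a description over arrays that share RNA within a pair. The same coefficient was 0.64 for Ngp with S100a8 over 8 arrays and 0.44 for Ngp with S100a9 over 7. For Ear3 it was -0.25 with S100a8 over 9 arrays and -0.24 with S100a9 over 7, and for Mpo with S100a8 -0.21 over 10. The highest value of Ear3 was with Mpo, 0.56 over 9 arrays.

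**Figure D3:**
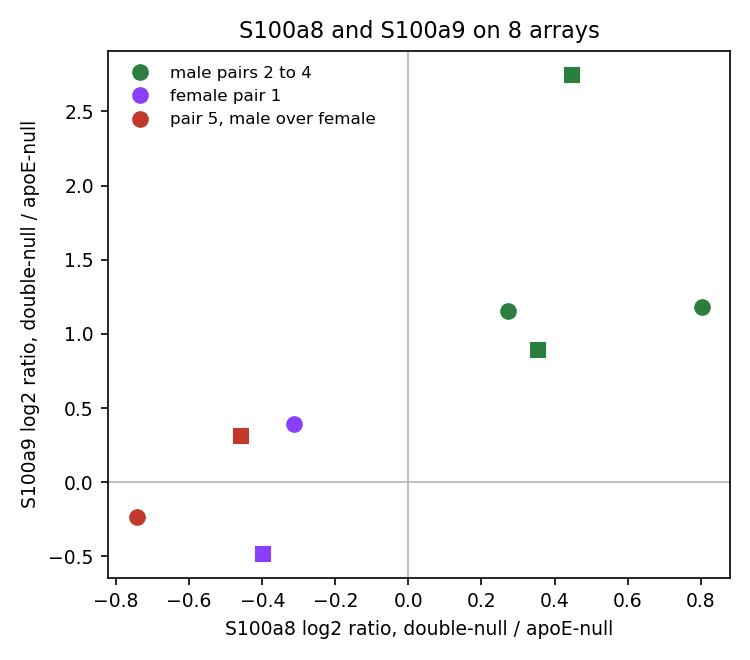
S100a9 (vertical axis) against S100a8 (horizontal axis), both as log2 ratios of double-null over apoE-null, 1 point per array for the 8 arrays with both values. Colours give the pair's sex, circles mark double-null RNA in channel 1 and squares in channel 2; the 4 arrays of male pairs lie in the upper right, and the 4 arrays of pairs 1 and 5 lie left of 0 on the S100a8 axis.

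Markers of blood and of other cells also differed between pairs in their median ratios. Pairs 1 and 5, in which S100a8 was negative, had the highest erythroid medians, 1.50 and 2.33, against 0.69, 0.47 and 0.30 in pairs 2 to 4, over 3 tested erythroid probes of 7. In pair 5 this came from Alas2 and Car2, at 2.33 and 2.97. Hba-a1 was at 0.34 there, below its 0.37 and 0.47 in pairs 2 and 3. The tested Car2 probe had no complete pair 2 or 4. Pairs 1 and 5 had the highest platelet medians too, 1.06 and 3.21 against 0.53, -0.24 and -0.26, over 3 tested platelet probes of 7. Of these, Ppbp had no complete pair 2 or 3, and Gp9, Itgb3 and Treml1 were blank. The macrophage median was -1.17, -0.38, -0.66, -0.38 and 0.14 in pairs 1 to 5. Of its 15 tested probes 14 were negative in the mean, against 58.7% of all tested probes, and 0 passed the threshold. An unadjusted p under 0.05 by limma was reached by 8 of the 15, and by 488 of 4866 over all probes. The adipocyte median was 2.31, -0.24, -0.58, 1.00 and -0.44 in pairs 1 to 5, so pairs 1 and 5 lay on either side of 0. The heart and skeletal muscle median was -0.91, 1.88, -0.03, 0.00 and -0.30 in pairs 1 to 5, over 6 tested probes of 16. In pair 2 a Myh6 probe was at 3.52, Mb at 2.74 and Tnni3 at 1.88. The other tested Myh6 probe was at 0.18 there and Tnnt2 at -0.14, and Actc1 had no complete pair 2. The part of these markers in the S100a8, S100a9, Mpo and Ear3 ratios was not tested.

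Among the cathelin-related granule genes, Ngp was measured and Camp was blank. Ngp had 0.39, 0.68, 0.67, 0.58 and 0.07 in pairs 1 to 5 with double-null RNA in channel 1, and 0.37, 0.05 and -0.09 in pairs 1, 3 and 5 with it in channel 2. Of 8 values 7 were positive, and both values of pair 5 were near 0. The mean was 0.24 ± 0.22 (SD, n = 3 pairs), with pairs 2 and 4 left out for a blank array, and 0.40 with single arrays admitted. Of 6 cathelin-related and cystatin probes outside the chosen genes 2 were tested and 0 passed: Cstb, a cytosolic cathepsin inhibitor, was at -0.18 ± 0.40 (n = 5 pairs, adjusted p = 0.687) and Cst3, a secreted one, at -0.06 ± 0.45 (n = 5 pairs, adjusted p = 0.911).

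Mpo, the enzyme that makes hypochlorous acid, had 0.33, 0.75, -0.09, -0.12 and 0.59 in pairs 1 to 5 with double-null RNA in channel 1, and -0.03, 0.62, -0.19, -0.28 and 0.13 with it in channel 2. Pair 2 was highest and pairs 3 and 4 were below 0 in both orientations, so the male pairs that were alike for S100a8 were not alike for Mpo. The mean was 0.17 ± 0.37 (SD, n = 5 pairs), with 5 values positive and 5 negative. The female pair was at 0.15 and the male pairs averaged 0.11. Myeloperoxidase can also be made by macrophages, in human plaques at least.

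Elane, the serine protease of the primary granule, had values in pair 5 only, -0.91 and -0.76 in the 2 orientations. Their mean of -0.83 is a level 1.78-fold lower in the male double-null than in the female apoE-null mouse, with no second pair beside it. Prtn3, which codes for the related proteinase 3 and is the direct neighbour of Elane on chromosome 10, had 1 value, 1.07, in the same pair with double-null RNA in channel 1. Its other probe was blank on every array, and for the single value a genotype difference and a dye effect cannot be told apart. The primary granule genes Mpo, at 0.59 and 0.13, and Elane thus differed in sign within pair 5 in both orientations.

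Neutrophil genes beyond those chosen were read in the same fit, from lists drawn up with earlier results of these data known. Of 27 probes for granule and effector proteins 7 were tested, of which 0 rose, 1 fell and 6 did not pass, beside 0.596% higher and 0.185% lower over all probes. Their median was -0.26 and all 7 means were negative, against 58.7% negative over all tested probes. The median of these probes was -0.68, -0.59, -0.53, -0.01 and 0.22 in pairs 1 to 5, so it was not low in every pair. The macrophage medians given above, -1.17, -0.38, -0.66, -0.38 and 0.14, ran alongside, Lyz2 is on both lists, and the part of macrophage transcripts in the granule list was not tested. Without pair 1 the granule median was -0.10.

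The granule gene that fell was Lcn2, lipocalin 2, which withholds iron from bacteria and is also made by macrophages, epithelium and adipocytes. Lcn2 had -1.59, -1.69, -0.85, -0.44 and -1.41 in pairs 1 to 5 with double-null RNA in channel 1, and -1.50, -0.44 and -0.88 in pairs 1, 2 and 5 with it in channel 2. All 8 values were negative, with a mean of -1.25 ± 0.26 (SD, n = 3 pairs, adjusted p = 0.0439). The adjusted p was 0.0762 without pair 3 and 0.118 without pair 4, neither of which holds a complete Lcn2 pair, and Lcn2 could not be fitted without pair 1, 2 or 5. Lyz2, lysozyme of neutrophils and macrophages, was at -0.81 ± 0.54 (n = 5 pairs, adjusted p = 0.157), Anxa1, a phospholipid-binding protein that limits neutrophil migration, at -0.27 ± 0.38 (n = 5 pairs, adjusted p = 0.574), and Cyba, a subunit of the phagocyte oxidase, at -0.26 ± 0.55 (n = 5 pairs, adjusted p = 0.655). Lcn2 and S100a8 thus differed in sign in each male pair in which both were measured on an array.

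Of the probes on both neutrophil lists, 13 had values only where channel 1 held the double-null RNA. Of their 45 array values 28 (62.2%) were positive, against 62.6% of the values of all 1783 such probes. Ltf, lactoferrin of the secondary granule, lay between 0.15 and 0.53 on 5 arrays and Ly6g, the surface marker of mouse neutrophils, between -0.06 and 0.70 on 5, whereas Cxcr4, a receptor that holds neutrophils in bone marrow, was negative on 4 of 4, and Lrg1, a glycoprotein of neutrophil granules, lay between -0.33 and 0.79 on 5. These 4 were named after their values were seen. For such probes, and for the Ngp values of pairs 2 and 4, a genotype difference and a dye effect cannot be told apart. The antibacterial protease gene Ctsg and the neutrophil surface gene Cd177 were blank on all 10 arrays, as were 44.4% of the granule list's probes and 41.9% of all probes.

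Of 37 probes for neutrophil receptors and recruitment 12 were tested, of which 0 rose, 1 fell and 11 did not pass, beside 0.596% higher and 0.185% lower over all probes. Their median was -0.23. The 1 that fell was Cxcl1, a chemokine that draws neutrophils through Cxcr2, with values between -2.20 and -0.47 on 10 arrays, all negative. Its mean was -1.67 ± 0.47 (SD, n = 5 pairs, adjusted p = 0.0122), and its adjusted p was 0.0543 without pair 3 and 0.0733 without pair 4. Fcgr3, an activating Fc receptor, was at -0.54 ± 0.44 (n = 5 pairs, adjusted p = 0.314), Selplg, the P-selectin ligand, at -0.45 ± 0.52 (n = 5 pairs, adjusted p = 0.492), and Ppbp, a platelet chemokine, at 2.25 ± 1.99 (n = 3 pairs, adjusted p = 0.330). Of the 37 probes 12 (32.4%) were blank on all 10 arrays, against 41.9% of all probes. Those of the receptor genes Cxcr2, Csf3r, C5ar1 and Fpr2 were among them.

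The other lists had no gene past the threshold. Of the S100 family and its receptors 8 probes were tested of 17, with a median of 0.20 that was positive in 5 of 5 pairs and lay between 0.09 and 0.27. S100b was at 0.60 ± 0.70 (n = 5 pairs, adjusted p = 0.469) and S100a10 at 0.52 ± 0.54 (n = 4 pairs, adjusted p = 0.474). S100a13 was at 0.20 ± 0.15 (n = 5 pairs, adjusted p = 0.561) and the scavenger receptor gene Cd36 at 0.39 ± 0.70 (n = 5 pairs, adjusted p = 0.593). In pair 3 S100b, Cd36 and S100a13 were at -0.41, -0.52 and -0.01, and S100a10 at 0.26. The part of adipocyte transcripts in the S100 list was not tested. Of the mast cell and basophil list 5 probes of 16 were tested, with a median of 0.02, where the mast cell proteases Cma1 and Cpa3 were at 0.37 ± 0.32 and 0.39 ± 0.50 (n = 5 pairs each, adjusted p = 0.457 and 0.511). Cma2, a related protease, was at 0.02 ± 0.31 (n = 5 pairs, adjusted p = 0.965) and Fcer1g, the shared Fc receptor gamma chain, at -0.18 ± 0.57 (n = 5 pairs, adjusted p = 0.745).

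**Figure D4:**
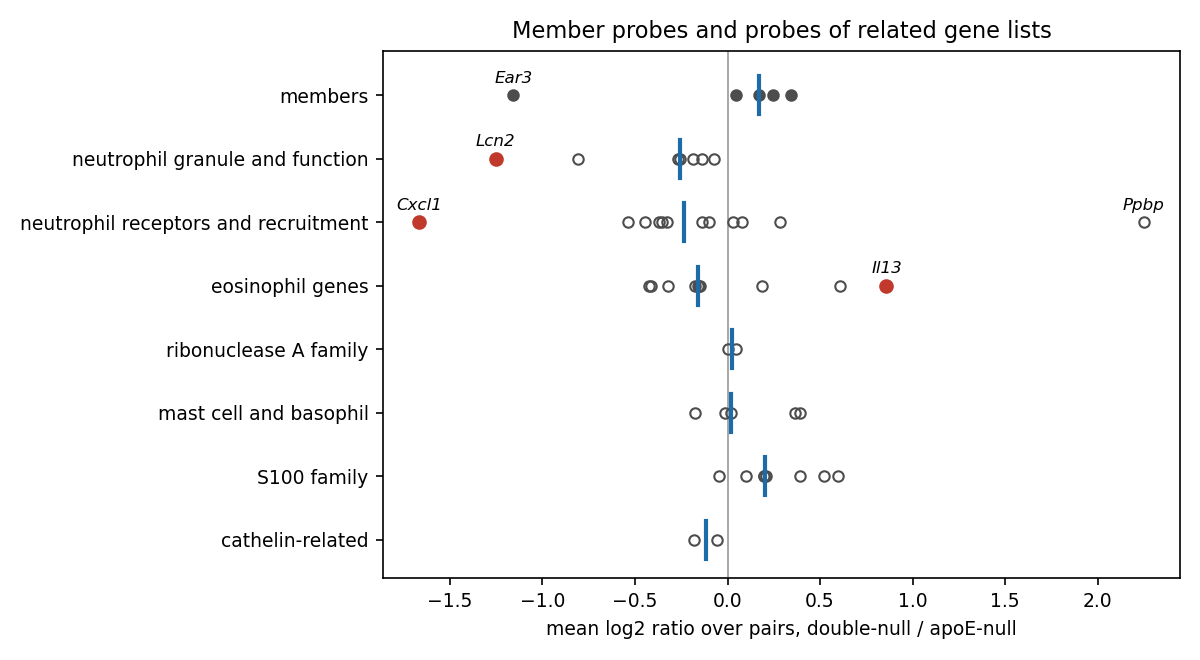
Mean log2 ratio over pairs, double-null over apoE-null (horizontal axis), for each tested probe of the chosen granulocyte genes (top row, filled) and of 7 related gene lists (rows below). Vertical bars are medians, red points are probes of the lists past an adjusted p of 0.05; all 7 neutrophil granule probes lie left of 0, and Ear3 lies apart from the other 4 granulocyte probes.

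By the highest Pearson's r of array values over at least 8 shared arrays, the gene most like Ear3 was Efnb2 (0.97 over 9 arrays), followed by Irf7 (0.95 over 8) and Fibp (0.94 over 9), among 4027 genes. Their own mean log2 ratios, 0.03, 0.15 and -0.12, were unlike that of Ear3, so the likeness lies in how values varied between arrays. For S100a8 the closest were Thbs3, Adamtsl2 and Nr4a1 at 0.95, 0.95 and 0.94 over 10 arrays among 4238 genes, and for S100a9 they were Gpm6b, Araf and Rbpms at 0.97, 0.95 and 0.94 over 8 arrays among 3323. For Ngp they were Mcm3ap, Cxcl1 and Ly6i at 0.96, 0.96 and 0.95 over 8 arrays among 3619, and for Mpo Sec61g, Rpl21 and Chchd1 at 0.93, 0.93 and 0.92 over 10 arrays among 4238. None of the chosen granulocyte genes was among the 3 closest of another. Arrays of a pair share RNA and arrays of an orientation share the dye, and the best of so many genes over so few arrays reaches a high coefficient readily.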

How the data were processed

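Ratios were measured on 10 two-colour arrays of amplified RNA. Per the labels, slides were scanned on a GenePix 4000B with GenePix Pro 3.0 and analysed in GeneSpring, and the deposited values are log2 ratios of apoE-null over double-null, as the array titles state. The sources used here do not give the normalization or why cells are blank; no scanner intensities were used, so the distance of a spot from background is not known, and precision is limited by the 10 arrays.

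Signs were turned, the 2 arrays of a pair averaged, and a probe needed 3 pair values. Tests against 0 used limma 3.58.1 in R 4.3.3 (lmFit and eBayes, two-sided, Benjamini-Hochberg over all 4866 probes, threshold 0.05), for genotype, for dye orientation and, over pairs 1 to 4, for female against male pairs. The fit was also run on simulated pair values without dye effects, and since the outcome is not given here, nothing is read from it. The p-values rest on the spread between separate pairs of mice. In pair 1 the mouse numbers of the genotypes are exchanged between the 2 arrays, and the genotype labels were followed. By the mouse numbers, both arrays of pairs 2 to 5 carry the same 2 mice, so pairing is part of the design.

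Names come from the platform annotation, updated through RefSeq GRCm38.p6: 12143 probes have 1 symbol, 49 several and 1680 none, and 12009 matched by identifier. The genes and lists were chosen with earlier results of these data known. Named are the 9 genes, list genes past the threshold, up to 4 per list with the smallest p, Myd88, and the 3 genes most like each chosen gene; other names were chosen after their values were seen. Alternatives were leaving out each pair, single orientations, other filters, centring, floor values, a robust fit, male pairs alone and an array-level fit; leaving out probes with a dye effect was added after seeing the data.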

Additional observations from a re-analysis of the deposited data

Results flagged for a closer look

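Among 19 groups of 4 to 10 values no sample lay far from the others. The Ear3 ratio was lower with double-null RNA in channel 2 in 4 of 4 pairs, with a difference between orientations divided by 2 of -0.41, which was known when Ear3 was chosen and is given as a description. For Il13 the same quantity was 2.34 (limma adjusted p = 2.14e-07), with opposite signs in the 2 orientations in 5 of 5 pairs.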

How the results depend on the processing

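The genotype comparison called 38 probes, between 0 and 25 without 1 pair, 59 and 119 in the channel 1 and channel 2 orientations alone, and 4 without probes that have a dye effect, a choice made after seeing the data. Calls for the dye effect ran from 110 to 222 without 1 pair and those between female and male pairs from 27 to 245. The count of granulocyte probes past the genotype threshold was 1, and 0 without pair 2, 3 or 4 (range 0 to 1). It was also 0 with pair values from 1 array and in the channel 1 orientation alone. With 5 pair values needed, or without dye-effect probes, Ear3 is not fitted, so the count of 0 there says nothing of Ear3. Past the dye threshold the count was 1, and 0 without pair 1, 3 or 4 (range 0 to 1). Ear3 averaged -0.98 with pair values from 1 array, -0.65 and -1.57 in the channel 1 and channel 2 orientations, and -1.20 to -1.07 without 1 pair. Ngp averaged 0.48 in the channel 1 orientation alone, and S100a9 0.99 with pair values from 1 array. Without 1 pair, S100a8 averaged between -0.09 and 0.21 and Mpo between 0.04 and 0.26. Il13 turned to -1.48 in the channel 1 orientation alone and missed the threshold under 8 other settings, Lcn2 missed it under 6 (adjusted p between 0.0534 and 0.175) and Cxcl1 without pair 3 or 4 (0.0543 and 0.0733). An array-level fit with pair as replicate block called 35 probes and gave Ear3 -1.03. The 7 list medians moved by less than the SD of their 5 pair medians under all 16 settings, but not all kept their sign. The neutrophil receptor median went from -0.23 to 0.02 in the channel 1 orientation alone. The eosinophil median went from -0.16 to 0.04 without pair 1. The cathelin-related median went from -0.12 to 0.07 in the channel 2 orientation alone. The ribonuclease and mast cell medians, near 0, also changed sign, and the granule and S100 medians did not. Where no construction shows it, the cause was not tested. Blank cells limit what could be tested: 5 of 8 granulocyte probes reached 3 pair values.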
